A study of Mus musculus with 8 samples.

Results

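Interferon-induced genes are genes that cells switch on when an interferon binds its receptor. The set described here holds 9 of them by name: Ifit1, Ifit2, Ifit3, Isg15, Rsad2, Oasl2, Usp18, Irf7 and Ifi44. A member was measured if the array carried a probe set annotated to its symbol and no other, and with several such probe sets the one with the highest mean would have stood for the gene. That gave 7 measured members of 9, among 19938 genes measured in all. Isg15 shares its probe set with the pseudogene Gm9706 and Ifi44 had no probe set under this rule, so both were not analysed here. No filter on low values was applied.

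RNA came from primary malignant peripheral nerve sheath tumours, cancers of the nerve sheath, of NPcis mice, which carry mutant Nf1 and Trp53 alleles on the same chromosome. All 4 groups share this genetic model and were treated for 14 hours. They received vehicle, rapamycin (an inhibitor of mTOR complex 1, 5 mg/kg IP), PD-0325901 (an inhibitor of the kinase MEK, 1.5 mg/kg OG per dose, 2 doses a day) or both drugs at those doses, called the combination here. Each group holds 2 arrays. The labels give no age, sex or strain, and do not say that the 2 arrays of a group came from separate mice, so p-values measure only the spread between these samples. Values are log2 signals, on which a difference of 1 is a doubling, and the number of arrays limits their precision.

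Type I interferons bind a receptor of the chains Ifnar1 and Ifnar2. The kinases Jak1 and Tyk2 then activate a complex that holds Stat2 and Irf9 and binds the interferon-stimulated response element in front of its target genes. Interferon gamma uses another receptor and acts through a different element, the gamma-activated site. Among the members, Irf7 is a transcription factor that amplifies interferon production, and Usp18 removes the Isg15 tag from proteins and dampens receptor signalling. Ifit1, Ifit2 and Ifit3 bind foreign RNA or each other and block its translation, Rsad2 (viperin) is a radical enzyme that makes a chain-terminating nucleotide, and Oasl2 is a relative of the oligoadenylate synthetases. In tumours these genes can be expressed by cancer cells and by infiltrating leukocytes.

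The promoters of 3 members are shown because they hold a match to the interferon-stimulated response element, and 2 of them, Ifit1 and Ifit3, had the highest Pearson correlation of any pair of members over the 8 arrays (0.98). The 250 bases before each start site were taken from RefSeq (build GRCm38.p6), which had an entry for 6 of the 7 measured members. The motif GAAA, any 2 bases and GAAA again was searched on both strands, and its matches are in capitals.
Ifit1: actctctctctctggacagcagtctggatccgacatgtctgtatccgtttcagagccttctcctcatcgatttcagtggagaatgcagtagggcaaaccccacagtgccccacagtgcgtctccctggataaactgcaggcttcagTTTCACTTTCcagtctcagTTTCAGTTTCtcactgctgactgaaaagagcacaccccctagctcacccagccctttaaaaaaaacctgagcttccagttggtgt
Ifit3: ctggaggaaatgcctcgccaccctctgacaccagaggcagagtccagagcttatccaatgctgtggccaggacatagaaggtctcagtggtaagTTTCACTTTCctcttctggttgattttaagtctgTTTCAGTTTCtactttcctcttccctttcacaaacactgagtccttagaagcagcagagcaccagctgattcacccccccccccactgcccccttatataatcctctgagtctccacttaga
Rsad2: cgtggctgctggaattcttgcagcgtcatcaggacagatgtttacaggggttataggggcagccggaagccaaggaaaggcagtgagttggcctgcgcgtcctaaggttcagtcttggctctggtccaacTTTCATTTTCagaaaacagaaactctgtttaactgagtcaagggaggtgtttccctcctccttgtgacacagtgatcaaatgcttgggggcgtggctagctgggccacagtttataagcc
The Ifit1 window lies at chr19:34640639-34640888 (+ strand), the Ifit3 window at chr19:34583279-34583528 (+ strand) and the Rsad2 window at chr12:26456453-26456702 (- strand). All 5 matches read as the reverse complement of the motif.

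In the Ifit1 window the matches begin 104 and 85 bases before the start site, and in the Ifit3 window 156 and 122 bases before it. The upstream match and its flanks are the longest stretch these windows share, 13 bases, agtttcactttcc. Rsad2 has 1 match, which begins 120 bases before the start. The windows of Ifit2, Oasl2 and Irf7 held no match to these letters. Over all 27025 genes with a window, 3.46% had a match, against 3 of 6 members. The gamma-activated site motif TTCNNNGAA, which is its own reverse complement, was found in 1 of 6 members, Ifit2, and in 8.13% of all genes, and overlapped no other match in the members. A match describes letters and does not show binding. Ifit2, Ifit3 and Ifit1 stand in this order on chromosome 19, with Ifit1bl1, Ifit3b and Ifit1bl2 between Ifit3 and Ifit1.

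The 7 members varied together from array to array. For each of them the SD within groups exceeded the SD of the group means, an order also seen in the medians over all genes (0.17 and 0.12). Means of 2 arrays vary less than single arrays, which favours this order. Of the vehicle and rapamycin arrays, number 1 was the higher in each group for all 7 members; of the PD-0325901 and combination arrays, number 2 was. Group means were highest in the combination for 6 of 7 members and lowest with rapamycin for 6 of 7, but no member passed the test in any comparison.

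Ifit1 had log2 signals of 9.97 and 9.30 on the vehicle arrays, 9.34 and 8.19 with rapamycin, 9.33 and 10.01 with PD-0325901, and 9.40 and 10.73 in the combination. The lowest array is rapamycin 2 and the highest combination 2, a range of 2.54 or 5.82-fold. Group means were 9.64 ± 0.47 (SD, n = 2) for vehicle, 8.76 ± 0.81 for rapamycin, 9.67 ± 0.48 for PD-0325901 and 10.06 ± 0.94 for the combination. The combination and rapamycin arrays do not overlap, while every other pair of groups does.

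Ifit3 followed the same course, with 10.69 and 9.65 for vehicle, 9.72 and 8.56 for rapamycin, 9.77 and 10.72 for PD-0325901, and 9.65 and 11.16 for the combination. Its range was the widest of the members, 2.61 or 6.09-fold, again from rapamycin 2 to combination 2. Here the rapamycin array 1 lay above the combination array 1, so these groups overlap. The neighbouring gene Ifit3b, a close copy with a probe set of its own, had 6.87 and 5.78 for vehicle, 6.39 and 5.30 for rapamycin, 6.04 and 6.53 for PD-0325901, and 6.07 and 7.26 for the combination. How far the Ifit3 and Ifit3b probe sets share signal was not tested.

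Ifit2 varied least among the Ifit genes. It had 8.92 and 8.26 for vehicle, 8.31 and 8.28 for rapamycin, 8.74 and 9.31 for PD-0325901, and 8.76 and 9.38 for the combination. The rapamycin arrays differed by only 0.03, and all 4 arrays with PD-0325901 lay above both rapamycin arrays. Vehicle array 1, however, lay within the range of the PD-0325901 arrays.

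Rsad2 had its highest array in another group than the other members. It gave 9.49 and 8.27 for vehicle, 9.29 and 8.15 for rapamycin, 8.63 and 10.22 for PD-0325901, and 8.64 and 9.62 for the combination. The PD-0325901 arrays differed by 1.59, or 3.01-fold, more than the range of its group means, 0.71.

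Oasl2 was the member with the smallest range of group means, 0.55. Its arrays gave 10.60 and 10.21 for vehicle, 10.83 and 9.95 for rapamycin, 10.02 and 10.71 for PD-0325901, and 10.42 and 11.41 for the combination. Rapamycin array 1 was its second highest array, unlike in the Ifit genes.

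Usp18, the inhibitor of the pathway, gave 10.05 and 9.02 for vehicle, 9.55 and 8.49 for rapamycin, 9.29 and 9.69 for PD-0325901, and 9.20 and 10.92 for the combination. The combination arrays differed by 1.72, or 3.29-fold, the largest difference within a group for any member. Irf7 gave 10.30 and 8.94 for vehicle, 9.31 and 8.59 for rapamycin, 9.07 and 9.90 for PD-0325901, and 9.41 and 10.68 for the combination. Both combination arrays of Irf7 lay above both rapamycin arrays, and the vehicle arrays, 1.35 apart, lay on either side of both PD-0325901 arrays.

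**Figure D1:**
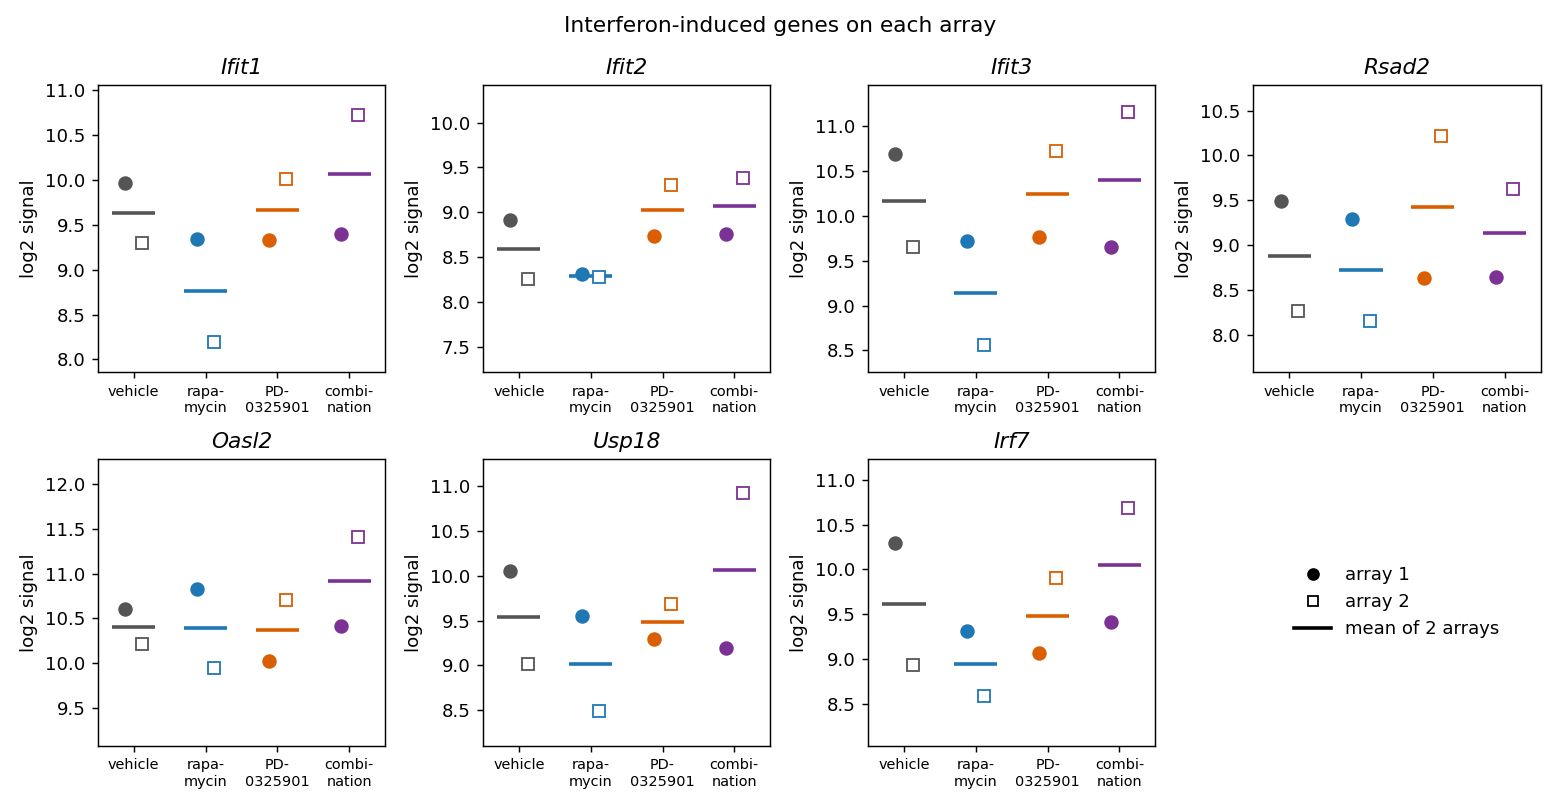
Log2 signal (y axis) of each measured member on the 8 arrays by group (x axis), with filled circles for array 1, open squares for array 2 and a line for the mean of the 2 arrays; every panel spans the same height. Array 1 is higher in the vehicle and rapamycin groups and array 2 in the PD-0325901 and combination groups for all 7 genes.

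When the group means of each member were put in order, the arrays of neighbouring groups overlapped in 21 of 21 cases, with steps of 0.02 to 1.03. Sorting puts the closest means side by side, which favours overlap, and the share over all genes was not computed. Groups that are not neighbours can separate, as the combination and rapamycin arrays did for 3 of 7 members and 16.0% of all genes. The order rapamycin, vehicle, PD-0325901, combination held for Ifit1, Ifit2 and Ifit3. Usp18 and Irf7 had PD-0325901 just below vehicle (by 0.05 and 0.14), and Oasl2 had PD-0325901, rapamycin and vehicle within 0.04 of each other.

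The difference between the 2 arrays of a group had a median over the members of 1.03 for vehicle, 1.07 for rapamycin, 0.69 for PD-0325901 and 1.27 for the combination. The same median over all genes was 0.17, 0.20, 0.13 and 0.17. Of the 28 such differences 24 exceeded the 90th percentile of all genes in the same group. The exceptions were Oasl2 in vehicle (0.40), Ifit2 (0.03) and Irf7 (0.73) in rapamycin and Usp18 in PD-0325901 (0.40). All genes did not share the direction: the array that was higher for the members was higher for 53.3% of all genes in vehicle, 48.0% in rapamycin, 44.8% in PD-0325901 and 53.8% in the combination.

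Pooled over the 4 groups, the within-group SD was 0.88 for Rsad2, 0.84 for Ifit3, 0.82 for Usp18, 0.76 for Irf7, 0.71 for Ifit1, 0.55 for Oasl2 and 0.38 for Ifit2. The median over all genes was 0.17 and the 95th percentile 0.61. Among all genes these SDs stood between the 85.1 percentile (Ifit2) and the 98.0 percentile (Rsad2). For each member the SD of the 4 group means was smaller than the within-group SD, from 0.37 against 0.38 for Ifit2 to 0.31 against 0.88 for Rsad2.

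**Figure D2:**
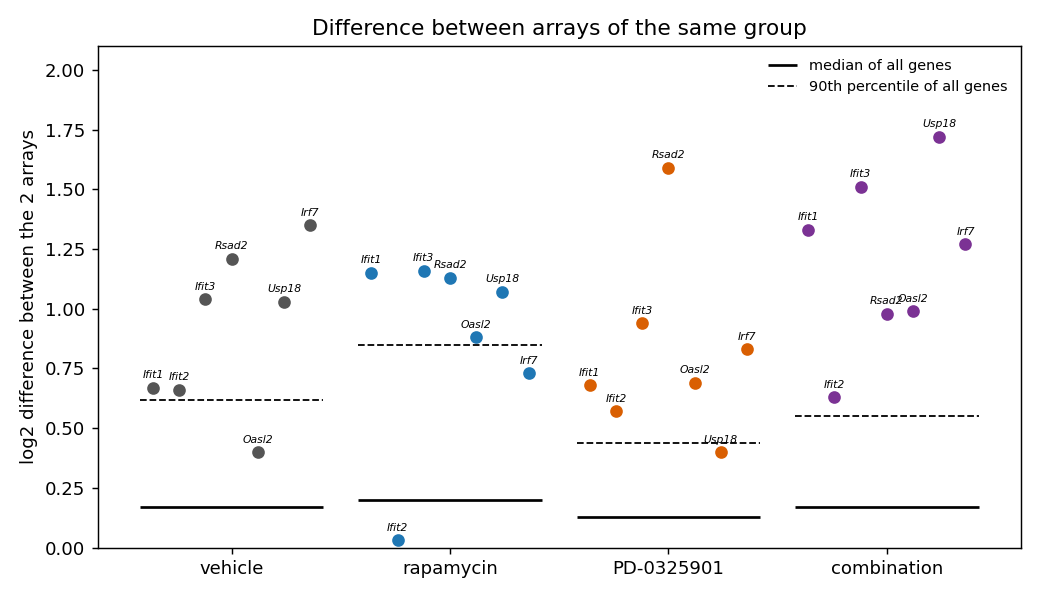
Absolute log2 difference between the 2 arrays of each group (y axis) for the 7 members (points), with the median (solid line) and the 90th percentile (dashed line) of all genes in that group. Of the 28 points 24 lie above the dashed line, and the highest is Usp18 in the combination at 1.72.

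Across the 8 arrays, the 21 pairs of members correlated with r from 0.65 (Ifit2 and Oasl2) to 0.98 (Ifit1 and Ifit3), with a median of 0.84. Spearman's rho ran from 0.67 to 0.98 with a median of 0.90. These are descriptions over 8 arrays that include the group differences. Without combination array 2 and rapamycin array 2, the arrays farthest from the median, r had a median of 0.80 and a range of 0.22 to 0.99. The largest losses were in pairs of Oasl2: with Ifit2 the r was then 0.22, with Ifit3 0.46 and with Ifit1 0.50. Not every pair of Oasl2 lost, as its r with Rsad2 went from 0.75 to 0.76. Ifit2 with Usp18 also fell, from 0.78 to 0.55. Ifit1 and Ifit3 kept an r of 0.99.

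The mean level of the 7 members, each centred on its own mean, was 1.01 on combination array 2, 0.52 on PD-0325901 array 2 and 0.45 on vehicle array 1. It was -0.08 on rapamycin array 1, -0.20 on combination array 1, -0.29 on PD-0325901 array 1, -0.46 on vehicle array 2 and -0.95 on rapamycin array 2. The arrays above 0 thus come from 3 groups, and the other array of each of these groups lies below 0.

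Of the other 19931 genes, the 10 whose levels over the 8 arrays correlated best with this mean had r from 0.951 to 0.984. They were Rtp4 (0.984), Oas3 (0.980), Ifit3b (0.976), Trim30a (0.968), H2-Q5 (0.968), Mx2 (0.965), Ifi213 (0.959), Oasl1 (0.953), AW112010 (0.953) and Cst7 (0.951). Oas3 makes oligoadenylates that activate RNase L, Mx2 is an antiviral GTPase and H2-Q5 is an MHC class I gene. At the other end stood Sec61a1 (-0.951), Sys1 (-0.944), Adgrf1 (-0.935), Ptbp2 (-0.921) and Cand2 (-0.918), of which Adgrf1 varied by only 0.16 over the arrays. Likeness was taken over 8 arrays and all genes.

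To ask whether MEK inhibition altered these genes with or without rapamycin, the mean of the PD-0325901 effects in both settings was tested with limma over all genes, here called the PD-0325901 main effect. All 7 members had a positive difference, from 0.24 to 0.67 with a median of 0.50, against a median of -0.01 over all genes. Ifit1 differed by 0.67 (SE 0.41, adjusted p = 0.7100), Ifit3 by 0.67 (SE 0.49) and Ifit2 by 0.60 (SE 0.23, adjusted p = 0.4854). Usp18 differed by 0.50 (SE 0.48), Rsad2 by 0.48 (SE 0.51), Irf7 by 0.48 (SE 0.45) and Oasl2 by 0.24 (SE 0.32), with adjusted p from 0.8366 to 0.8943 for these 4.

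After Benjamini-Hochberg adjustment at 0.05, limma called 0 of 7 members and 0 of 19938 genes for this effect (0%). At an unadjusted p under 0.05, 1 of 7 members was called (Ifit2), where 9.60% of all genes were called, 1915 in number. No member had all 4 arrays with PD-0325901 above all 4 without it, as 3.34% of all genes did. The differences did not pass the test against the spread between arrays. The 95% intervals run from 0.04 to 1.16 for Ifit2, and include 0 for the other members, up to 1.87 for Ifit3. Leaving out vehicle array 2 brought the median to 0.24, and leaving out combination array 1 brought it to 0.80; without combination array 2 the difference of Oasl2 was -0.01 and that of Usp18 0.07.

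The effect of PD-0325901 was next taken without and with rapamycin present. Against vehicle, PD-0325901 alone gave differences of 0.55 for Rsad2 (SE 0.73), 0.43 for Ifit2 (SE 0.32), 0.08 for Ifit3 (SE 0.69), 0.03 for Ifit1 (SE 0.58), -0.04 for Oasl2 (SE 0.46), -0.05 for Usp18 (SE 0.67) and -0.14 for Irf7 (SE 0.63). The median was 0.03, and 4 of 7 were positive. Omitting vehicle array 1 gave a median of 0.54, and omitting vehicle array 2 gave -0.30. In limma 0 members and 0 genes (0%) passed, with 0 members and 1165 genes (5.84%) at an unadjusted p under 0.05.

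The combination against rapamycin, which adds PD-0325901 to rapamycin, gave a positive difference for all 7 members. Ifit1 was higher by 1.30 (SE 0.58, 2.47-fold), Ifit3 by 1.27 (SE 0.69), Irf7 by 1.10 (SE 0.63), Usp18 by 1.04 (SE 0.67), Ifit2 by 0.77 (SE 0.32), Oasl2 by 0.53 (SE 0.46) and Rsad2 by 0.41 (SE 0.73). The median was 1.04, and adjusted p from limma lay between 0.7521 (Ifit2) and 0.9888 (Rsad2). Both combination arrays lay above both rapamycin arrays for 3 of 7 members (Ifit1, Ifit2 and Irf7) and for 16.0% of all genes. In limma 0 members and 0 genes (0%) passed, and 0 members and 1327 genes (6.66%) had an unadjusted p under 0.05. The median was 0.46 without combination array 2 and 1.73 without combination array 1.

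A comparison of both PD-0325901 effects is the interaction of the drugs. It had a median of 1.09 over the members, from -0.14 for Rsad2 to 1.27 for Ifit1 (SE 0.82, 95% interval -0.75 to 3.29, adjusted p = 0.9999). In limma 0 members and 0 genes (0%) were called, and 0 members and 434 genes (2.18%) at an unadjusted p under 0.05. The median was 0.23 without combination array 2 and 1.87 without combination array 1. The interval of Ifit1 covers differences in either direction.

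Rapamycin alone gave lower values than vehicle for all 7 members, without a call. The differences were -1.03 for Ifit3 (SE 0.69), -0.87 for Ifit1 (SE 0.58), -0.67 for Irf7 (SE 0.63), -0.52 for Usp18 (SE 0.67), -0.29 for Ifit2 (SE 0.32), -0.16 for Rsad2 (SE 0.73) and -0.02 for Oasl2 (SE 0.46). The median was -0.52, against -0.02 over all genes. Omitting vehicle array 1 gave 0.01, and omitting vehicle array 2 gave -1.03. In limma 0 members and 0 genes (0%) passed, 0 members and 982 genes (4.93%) had an unadjusted p under 0.05, and the arrays of both groups overlapped for every member, while 17.9% of all genes were lower with rapamycin without overlap.

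The rapamycin main effect, the mean over both settings, ranged from -0.43 (Ifit3) to 0.27 (Oasl2) with a median of -0.12. Adding rapamycin to PD-0325901 gave a median of 0.39, from -0.30 (Rsad2) to 0.58 (Usp18). The combination against vehicle gave a median of 0.43 with all 7 positive, from 0.24 (Ifit3) to 0.53 (Usp18). Leaving out single arrays, these medians ranged from -0.40 to 0.13, from -0.27 to 1.05 and from -0.23 to 1.01, with sign changes without combination array 2 in the last 2, and in the first when any 1 of 4 arrays was omitted, namely combination 1, PD-0325901 2, vehicle 1 and rapamycin 2. In limma 0 members and 0 genes (0%) passed in these 3 comparisons. At an unadjusted p under 0.05, 0 members were called for the rapamycin main effect and for the combination against vehicle. Of all genes, 5.55% and 9.07% were. For the combination against PD-0325901, 0 members and 599 of 19938 genes were called at this threshold. The comparisons with vehicle share their control arrays, as those with rapamycin do.

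**Figure D3:**
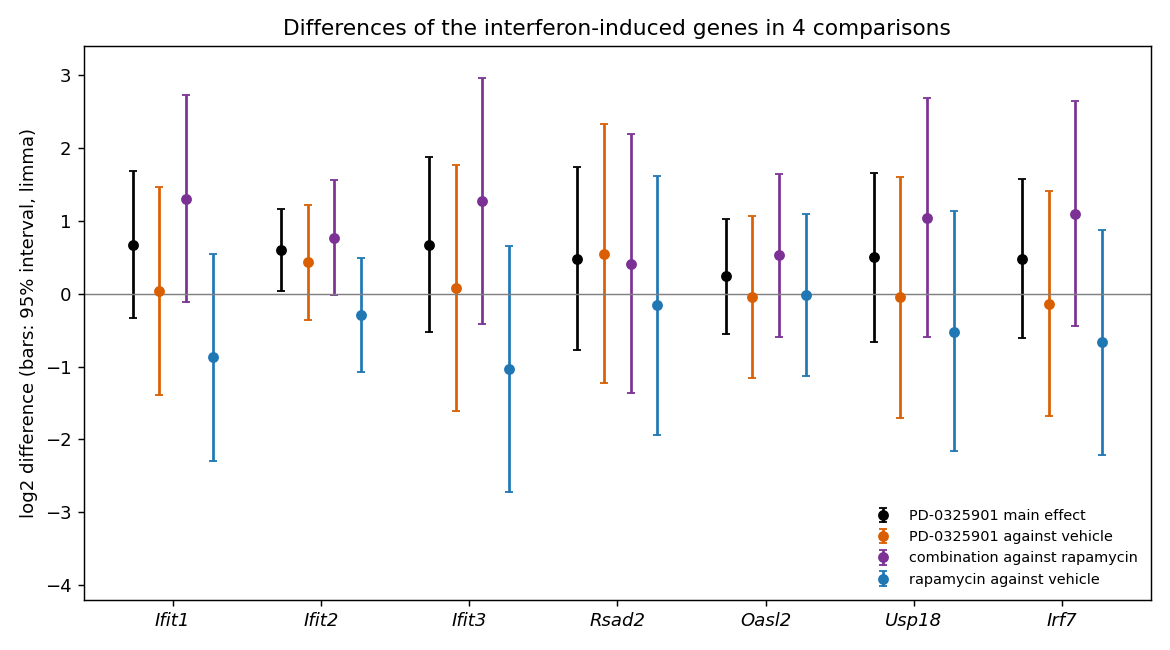
Log2 difference (y axis) of each member in 4 comparisons (colours), with the 95% interval of the limma fit as bars and a line at 0. The interval for the PD-0325901 main effect of Ifit2, 0.04 to 1.16, is the only one drawn that does not include 0.

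Other genes of the pathway were set beside the members from lists of textbook knowledge. The differences of the 8 measured interferon ligands as a PD-0325901 main effect ran from -0.19 (Ifnl2, SE 0.08) to 0.09, with Ifnb1 at 0.01 (SE 0.07) and Ifng at 0.09 (SE 0.08), and 0 passed. Ifnb1 had signals of 6.38 to 6.57 and Ifng of 7.05 to 7.32 over the 8 arrays, a span of 0.19 and 0.27. Ifna5 spanned 0.29 and correlated with the members at r = 0.88. Ifna2 (0.09, SE 0.10), Ifna4 (0.04, SE 0.06), Ifne (-0.03, SE 0.07) and Ifnk (-0.01, SE 0.11) completed the list. The files hold no detection calls, so whether these probe sets measured transcript was not tested.

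Of the 6 receptor chains, Il10rb, shared by the lambda interferon and interleukin 10 receptors, differed by 0.52 (SE 0.17, adjusted p = 0.4204 in limma). Ifnar2 differed by 0.24 (SE 0.18), Ifngr1 by 0.11 (SE 0.09), Ifnar1 by 0.06 (SE 0.15), Ifngr2 by -0.10 (SE 0.15) and Ifnlr1 by -0.17 (SE 0.15). Among the 5 signalling genes measured, Stat2 differed by 0.65 (SE 0.30), Tyk2 by 0.43 (SE 0.11), Irf9 by 0.42 (SE 0.17), Jak1 by 0.02 (SE 0.09) and Jak2 by -0.03 (SE 0.16). Stat2 and Irf9, themselves interferon-induced, correlated with the members at r = 0.89 and 0.81, whereas Jak1 had an r of 0.04. Stat2 ran from 8.63 on rapamycin array 2 to 10.39 on combination array 2, the lowest and highest arrays of most members.

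Of 36 other type I interferon effectors, 34 were higher and 2 lower as a PD-0325901 main effect, beside 9169 of all 19938 genes higher. The 2 lower were Ifitm1 and Ifitm3. The median of the effectors was 0.40, and 0 of them passed. At an unadjusted p under 0.05, 7 were higher and 0 lower, beside 5.47% and 4.14% of all genes. The smallest p belonged to Ddx60, a helicase (1.2, SE 0.31, adjusted p = 0.3141 in limma), Mx1, an antiviral GTPase (0.94, SE 0.24), Nmi (0.60, SE 0.21) and Uba7, the enzyme that activates Isg15 (0.42, SE 0.16). Ddx60 had 7.74 and 7.68 for vehicle, 7.51 and 7.13 for rapamycin, 8.11 and 8.90 for PD-0325901, and 8.34 and 9.52 for the combination. Unlike in any member, all 4 arrays with PD-0325901 were above all 4 without it. Of these 36 effectors 15 were among the 100 genes most like the members, out of 19931 genes ranked. The interferon gamma list described below had 4 of 14 among them and the nucleic acid sensing list 2 of 14. No other list had more than 1. The effectors varied together, with a mean centred level of 0.13 and -0.45 on the vehicle arrays and -0.11 and -0.38 with rapamycin. It was -0.12 and 0.39 with PD-0325901, and -0.03 and 0.57 in the combination. Array 1 of both groups with PD-0325901 thus lay below vehicle array 1, and the 34 are not separate observations.

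Among 14 genes that respond mainly to interferon gamma or carry its programme, 12 were higher and 2 lower (median 0.41), 3 of them higher and 0 lower at an unadjusted p under 0.05, beside 5.47% and 4.14% of all genes, and 0 after adjustment. Ciita, the regulator of MHC class II, differed by 1.06 (SE 0.12), Irf8 by 0.73 (SE 0.11), Gbp8 by 0.89 (SE 0.29) and Gbp7 by 0.49 (SE 0.22). Their adjusted p in limma lay between 0.1411 and 0.5653. These 4 had the smallest p of the list, and other genes of it behaved otherwise. Cxcl9, 1 of the 2 lower, had the widest range of the list, 2.45. Its means were 10.03 for vehicle, 8.82 for rapamycin, 8.63 for PD-0325901 and 9.39 for the combination. For Cxcl10 they were 10.52, 8.94, 10.16 and 9.77. Of 14 genes of nucleic acid sensing, 11 were higher and 3 lower (median 0.20), and 2 of 14 were higher at an unadjusted p under 0.05, beside the same 5.47% of all genes: the endosomal receptors Tlr7 (1.0, SE 0.11) and Tlr9 (0.92, SE 0.14). The cytosolic sensors Dhx58 and Ddx58 differed by 0.76 (SE 0.32) and 0.36 (SE 0.18). Dhx58 and Ddx58 resembled the members (r = 0.94 and 0.86), Ciita and Tlr7 less so (r = 0.35 and 0.54). Of the 5 negative regulators, the phosphatase Ptpn6 differed by 0.41 (SE 0.14), and the others from -0.15 to 0.05, with Ptpn2 at -0.15 (SE 0.21), Socs3 at -0.07 (SE 0.20) and Pias1 at 0.05 (SE 0.14).

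Markers of leukocytes moved with parts of this pattern. T and NK cell markers were higher as a PD-0325901 main effect for 11 of 11 measured (median 0.77, 9 at an unadjusted p under 0.05, beside 5.47% of all genes), and their mean level lay at 7.64 and 7.25 for vehicle, 7.03 and 7.05 for rapamycin, 7.62 and 8.29 for PD-0325901, and 7.81 and 8.66 for the combination. Their highest array was combination 2, as for most members. In 3 of 4 groups the array with more of the members also had the higher T and NK level, while in rapamycin the levels differed by 0.02. The same 3 of 4 held for the plasmacytoid dendritic, B and plasma, erythroid and skeletal muscle markers. Plasmacytoid dendritic markers were higher for 5 of 7 (median 0.12, 2 at an unadjusted p under 0.05), and their highest array was combination 2 as well. Macrophage markers were higher for 12 of 13 (median 0.37, 8 at an unadjusted p under 0.05), with a mean level of 10.66 to 10.92 in vehicle, 10.75 to 10.78 in rapamycin, 11.28 to 11.37 in PD-0325901 and 10.88 to 11.30 in the combination. They matched the members' higher array in 2 of 4 groups. Conventional dendritic markers were higher for 6 of 8 (median 0.51, 5 at an unadjusted p under 0.05) and matched it in 2 of 4 groups as well. The 36 other effectors and the genes of the interferon gamma list did so in 4 of 4 groups, as did the neutrophil and endothelial markers. The neutrophil match in vehicle, however, rests on levels of 7.01 and 6.99, as narrow as the T and NK mismatch in rapamycin. Endothelial markers, unlike the members, had lower values as a PD-0325901 main effect for 8 of 8 (median -0.50, 5 at an unadjusted p under 0.05, beside 4.14% of all genes). None of these markers passed after adjustment in limma. The part of leukocytes in the members' levels was not tested, and in bulk tissue more cells of a type and more RNA per cell cannot be told apart.

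Single arrays stood apart in other markers. Rapamycin array 2, the lowest for most members, had the highest skeletal muscle score (mean centred level 1.74) and a fibroblast score of -1.05. Vehicle array 1, above vehicle array 2 for all 7 members, had the lowest fibroblast score, -1.19, against 0.72 on vehicle array 2. PD-0325901 array 2 had an erythroid score of 2.57 over 2 markers and a neutrophil score of 0.73. The part of these differences in the members' levels was not tested. Schwann lineage markers, which should mark the tumour's lineage, held a mean level of 7.50 to 7.79 over all arrays, with Sox10 between 7.85 and 8.17 and S100b between 7.12 and 7.32. These levels lie below the median gene level of 8.25. Without detection calls, whether they measured transcript was not tested, so they do not show a constant share of tumour cells. Other markers of this list varied more: Egr2 ran from 8.10 to 9.20. Cdh19 had 5.44 and 5.94 for vehicle, 5.66 and 5.66 for rapamycin, 6.98 and 7.02 for PD-0325901, and 5.40 and 7.34 for the combination. Correlations between whole arrays were 0.947 to 0.983 within groups (4 pairs) and 0.953 to 0.980 between them (24 pairs).

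**Figure D4:**
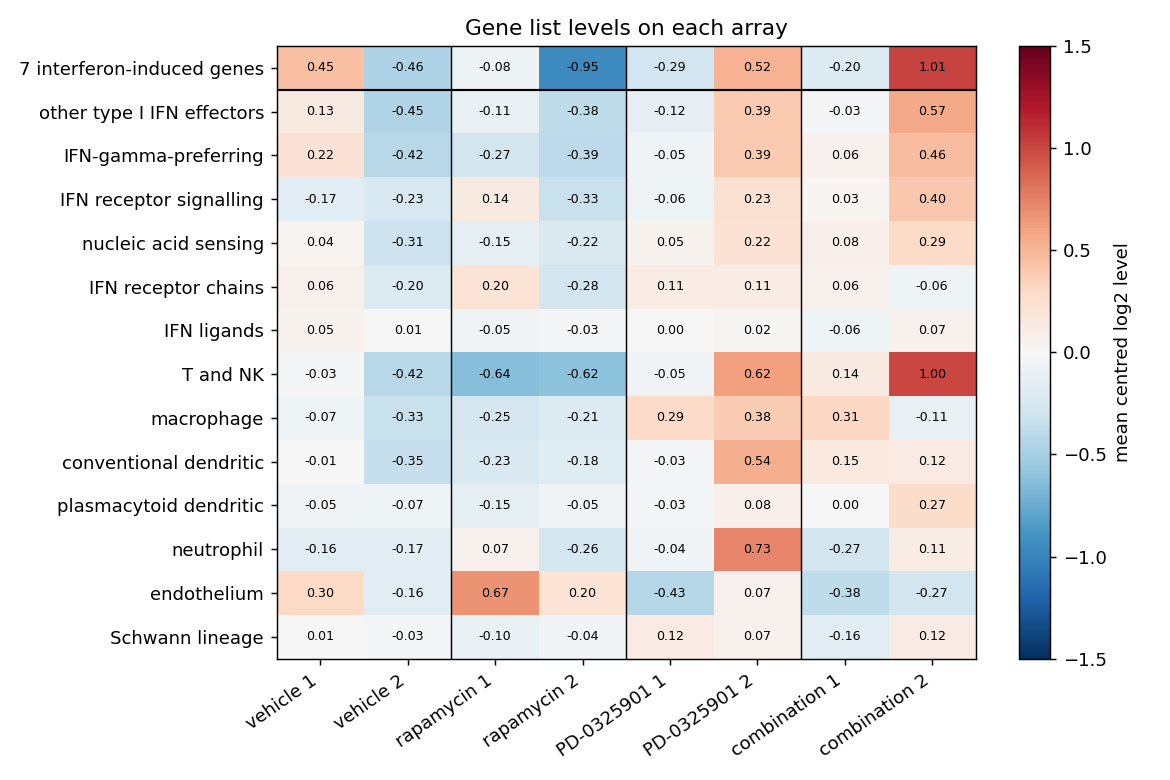
Mean centred log2 level (colour and printed value) of the 7 members and of 13 gene lists (rows) on the 8 arrays (columns), each gene centred on its own mean over all arrays. The members run from -0.95 on rapamycin array 2 to 1.01 on combination array 2, and the other type I interferon effectors from -0.45 to 0.57.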

How the data were processed

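RNA from 8 tumour samples was measured on microarrays after Trizol extraction and amplification with the Nugen Applause kit, per the labels' protocols. The deposited values are log2 signals, 1 per probe set and array. The log2 scale was read from the values (3.36 to 14.36), since the natural log of the largest scanner signal is 11.09, below the highest value. The software, background correction and normalization were not given in the sources used here. Array medians lay between 7.79 and 7.90.

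The platform annotation gave 1 gene for 21789 probe sets, several for 1621 and none for 12101. The probe set with the highest mean stood for each of 19938 genes. A model of 4 group means on all 8 arrays was fitted in R 4.3.3 with limma 3.58.1 (lmFit, then moderated by eBayes; two-sided; 4 residual and 1.98 prior degrees of freedom). P-values were adjusted by Benjamini-Hochberg over all genes. The fit of the PD-0325901 main effect was tried on simulated data in which genes varied independently. The other comparisons were not simulated. The members varied together, so the simulation does not bear on them as a set. An exact permutation of 2 against 2 arrays cannot go below p = 0.333. Alternatives were quantile normalization, median centring, genes above the median level, the mean of a gene's probe sets, a robust prior with a variance trend, a replicate block, a threshold of 0.1, fewer groups and leaving out each array.

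The members and lists were chosen with earlier results of these data known. Named were all members, the ligand, receptor and signalling lists in full, up to 4 genes of other lists by p, and the 10 most and 5 least similar genes. Ddx60's array order, Cxcl9, Cxcl10, Ifitm1, Ifitm3, the extremes by array and the stand-apart markers were picked after their values were seen.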

Additional observations from a re-analysis of the deposited data

How the results depend on the processing

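Of 448 member differences recomputed under alternatives in 4 comparisons, 0 passed the threshold, with adjusted p from 0.3552 to 1.0 in limma. Signs changed in 22 cases, all with an array left out. Of the other settings only both scalings can move a member's difference, since each member has 1 probe set and the remaining settings alter the test alone. Leaving out each array, PD-0325901 against vehicle ranged from -0.30 to 0.37 for Ifit1, -0.44 to 0.60 for Ifit3, -0.24 to 1.34 for Rsad2, -0.38 to 0.30 for Oasl2, -0.56 to 0.46 for Usp18 and -0.81 to 0.54 for Irf7. Rapamycin against vehicle ranged from -0.62 to 0.04 for Ifit2, -0.77 to 0.45 for Rsad2, -0.46 to 0.42 for Oasl2, -1.05 to 0.02 for Usp18 and -1.35 to 0.01 for Irf7. The combination against rapamycin ranged from -0.15 to 0.98 for Rsad2, and the PD-0325901 main effect from -0.01 to 0.49 for Oasl2. The members' median ranged from 0.46 to 1.73 for the combination against rapamycin and from 0.23 to 1.87 for the interaction. A group left with 1 array is assumed to vary like the others. Over all genes, the limma count for the PD-0325901 main effect was 22 in a fit of 2 groups (with against without the drug) and 0 to 8 without an array; none of the members was among them. The counts ranged from 0 to 2 for the rapamycin main effect, 0 to 9 for PD-0325901 against vehicle, 0 to 15 for rapamycin against vehicle, 0 to 9 for the combination against vehicle and 0 to 2 for the interaction. The highest count came without vehicle array 2, except for rapamycin against vehicle, where omitting rapamycin array 2 gave it. The cause was not tested. The labels do not say whether array numbers pair the samples. Deviations of same-numbered arrays correlated between -0.28 and 0.18 across groups, which cannot exclude a pairing, since each group gives 1 deviation per gene. A replicate block leaves every difference as it was by construction (median 0.50 for the PD-0325901 main effect). With it the adjusted p of Ifit2 in limma was 0.5681, and 0 members were called. Scaling moved the median of all genes by at most 0.02. The number of arrays limits the precision.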
